A study of Mus musculus with 96 samples.

Results

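ESRRB binding was compared between undifferentiated mouse embryonic stem (ES) cells and the same cells after 24 h of doxycycline (Dox), which switches on a Gata6 cassette and directs the cells towards primitive endoderm (PrE), the extra-embryonic lineage that lines the yolk sac. The comparison rests on 8 of the 96 samples of the series, those made with the ESRRB antibody without Dox (day 0), after 8 h, after 16 h and after 24 h (day 1), with 2 samples listed at each time. The cells were KH2 ES cells, strain C57BL/6 x 129/Sv, which all carry the Dox-inducible GATA6 cassette, also those without Dox. They were kept with FCS and LIF on mitotically inactive feeder fibroblasts, which were adsorbed off before fixation, and Dox was given at 1 µg/mL. Clones were derived from single colonies, and the clone used for these samples was not given in the sources used here. Binding was measured by chromatin immunoprecipitation and sequencing (ChIP-seq), which pulls down fixed chromatin by an antibody against the bound protein and reads the DNA that comes with it. The values are RPM, which scales the reads on a region to the mapped reads of its library, on 42403 regions of the mm10 genome, all of them regions where GATA6 was bound at some time, so ESRRB sites that GATA6 never bound were not analysed here. As a bulk measurement, ChIP-seq cannot tell apart a change in the share of cells with ESRRB on a region and a change in how much is bound per cell.

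ESRRB is an orphan nuclear receptor of the estrogen-related receptor family. It binds DNA as a monomer through an extended half-site close to TCAAGGTCA and, together with OCT4 and SOX2, is counted among the pluripotency transcription factors (PTFs) that keep the ES cell gene network active. GATA6 is the zinc finger factor that drives PrE identity, and the authors classed its regions as early (bound from the first hours and kept), transient (bound early and lost) or late.

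Sequences around the ESRRB element are shown for the regions that the results below turn on, to let the element in regions that rose be read against the element in regions that fell. Capitals mark the best ESRRB match of 11 bases listed by the authors for the region, and the lower-case letters are the genomic bases on either side, read 5′ to 3′ on the strand of the match from RefSeq GRCm38.p6, the assembly that mm10 names. In the regions of the first 6, both day 1 libraries lay above both day 0 libraries, and in those of the last 3 below both.
Mecom, chr3:30354396-30354424, plus strand: tgacaaaggTCAGGGTCACAtggcaagga
Runx1, chr16:92662117-92662145, minus strand: gaaccctacCCAAGGTCACCcagctaatc
Fgfr2, chr7:130140919-130140947, minus strand: atcagaagtTTAAGGTCATCcagacgtgt
Pdgfra, chr5:75118232-75118260, plus strand: tctgtgagtTCAAGGTCAACcttgtttac
Klf5, chr14:99331838-99331866, plus strand: cggaaccagCAAAGGTCACAtgtgcccgg
Pou5f1, chr17:35488296-35488324, minus strand: ggttcaaggTGAAGGTCACGggctcagct
Esrrb, chr12:86502050-86502078, plus strand: atccctgctTCAAGGTCAACtgaaaagcc
Grm7, chr6:111446444-111446472, plus strand: ggtctttgtGCAAGGTCAGTcagtagtac
Sis, chr3:72858709-72858737, plus strand: ctgcttattTTAAGGTCACTtgttagagt
The Pdgfra region, where ESRRB rose, and the Esrrb intron, where it was lower at day 1, carry the same 11 bases. The core AAGGTCA, on either strand, lies in 7015 of the 42403 regions, or 16.5%.

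The deposited values could be taken apart into single libraries, and this changed what day 0 is. Every one of the 42403 values in each of the 4 ESRRB columns lay on a sum of whole reads, each scaled to its library with 1 read added, so that reads per library and library depths could be recovered. The column of day 0 held the mean of 5 libraries, of which 2 occurred in no other column and 3 were the library of 8 h and both libraries of 16 h. Without taking those 3 out, 1.41% of its values lay on whole reads of the same 2 libraries. Other library depths were not tried there, so this share does not test a mean of 2 other libraries. The column of 8 h held 1 library, although 2 are listed. From here on, day 0 means the 2 libraries that occur in no other column, unless a value is called deposited, and where values of a pair are given the deeper library comes first.

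The 7 recovered libraries held 20534141 and 20324718 reads at day 0, 9103745 reads at 8 h, 7430700 and 7138878 reads at 16 h, and 20924473 and 8374945 reads at day 1. One read was thus worth between 0.0478 and 0.140 RPM, and the median region had 4 to 9 reads in a library. Between 3.33% and 5.66% of reads fell in the regions, with the lowest share in the deeper day 1 library and the highest in a 16 h library. Across regions, Spearman's rho was 0.828 between the day 0 libraries, 0.797 between the day 1 libraries and 0.735 to 0.747 between days, as a description over 42403 regions read from the same libraries of unequal depth. At the 1000 regions with most ESRRB at day 1, the median was 5.40 RPM in the deeper day 1 library and 8.12 RPM in the other, so the day 1 libraries differed most where binding was strong.

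Over all regions, ESRRB differed between the days in both directions, and the count of higher regions depended on which libraries stood for day 0. With the columns as deposited, 94 regions (0.222%) were at least 2-fold higher and 1077 (2.54%) at least 2-fold lower at day 1, with a median log2 difference of -0.09 on the scale of log2(RPM + 0.179). With the recovered day 0 libraries, 3481 regions (8.21%) were at least 2-fold higher and 2157 (5.09%) at least 2-fold lower, with a median of 0.14 and quartiles at -0.28 and 0.54. Among the 9933 regions with a mean of 1 RPM or more over the days, 1332 were 2-fold higher and 1377 were 2-fold lower. These counts come from means and have no test of their own.

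**Figure D1:**
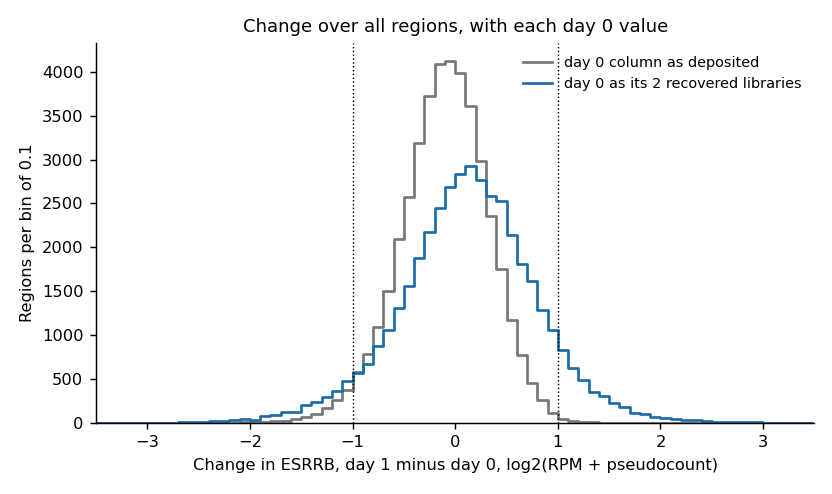
Number of regions (vertical axis, per bin of 0.1) by the difference in ESRRB from day 0 to day 1 in log2(RPM + pseudocount) (horizontal axis), with the deposited day 0 column in gray and the 2 recovered day 0 libraries in blue. The dotted lines mark 2-fold; beyond the upper one lie 94 regions in gray and 3481 in blue.

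Regions where the change exceeded the spread between libraries were called with limma on log2(RPM + 0.179) in the 7 libraries, at an adjusted p (Benjamini-Hochberg over all 42403 regions) under 0.05. ESRRB rose on 304 regions (0.717%) and fell on 112 regions (0.264%), 416 in all (0.981%), and 3374 and 2185 regions had an unadjusted p under 0.05. The log2 changes ran from 1.72 to 3.37 among the regions that rose and from -3.32 to -1.74 among those that fell. edgeR's quasi-likelihood test on the recovered reads with TMM scaling called 1472 regions higher (3.47%) and 2392 lower (5.64%), and all 304 and all 112 were among them with the same direction. The split depended on the scaling: with limma, 73.1% of calls were gains on library totals and 36.7% with TMM factors, and with edgeR 60.8% and 38.1%, and the median over all regions was 0.19 with edgeR on library totals and 0.03 with TMM. Leaving out any 1 of the 4 libraries of day 0 and day 1 left 0 regions past the threshold in limma, the only tool run this way, with 2553 to 4427 regions at an unadjusted p under 0.05. The direction of all 416 regions was kept in each of these 4 fits. This was fixed in advance, since the day 0 and day 1 libraries did not overlap on any of the 416 regions.

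**Figure D2:**
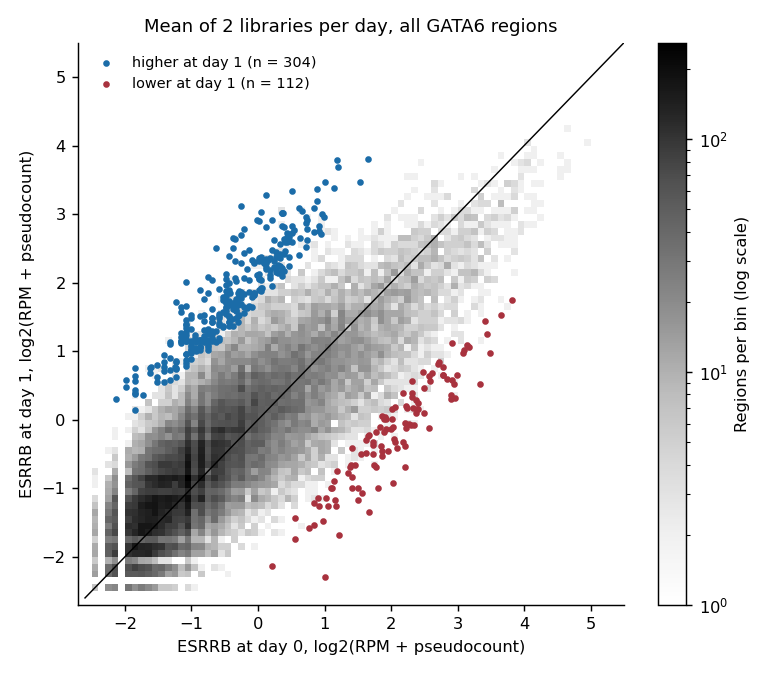
ESRRB at day 0 (horizontal axis) against day 1 (vertical axis), each as log2(RPM + pseudocount) of the mean of 2 libraries, with the gray scale giving the number of regions per bin on a log scale. Blue points are the 304 regions that rose and red points the 112 that fell by limma, and the line marks equal values.

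The regions that rose were nearly empty of ESRRB at day 0 and had most of their gain by 16 h. The median over the 304 regions was 0.584 and 0.566 RPM in the day 0 libraries, 2.53 RPM at 8 h, 3.90 and 3.85 RPM at 16 h, and 2.82 and 3.46 RPM at day 1. In the deposited columns of later days the median was 2.26 RPM at day 2 and 0.853 RPM at day 4. By condition means, 208 of the 304 regions were highest at 16 h, 66 at day 1 and 30 at 8 h. These levels are scaled to library totals. The TMM factors were 1.29 and 1.08 for the 16 h libraries against 0.850 and 1.08 for those of day 1. The order of these times was not computed with them. Per kb of region, the median was 0.547 RPM at day 0, against 0.678 over all regions, and 3.12 RPM at day 1, against 0.887.

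These regions were mostly closed in ES cells and bound early by GATA6. Of the 304, 279 were classed as closed at day 0, 25 as moderate and 0 as accessible. Closed, moderate and accessible regions make up 61.3%, 31.2% and 7.43% of all. GATA6 classes were early for 258, transient for 41 and late for 5. Early, transient and late regions are 28.0%, 38.4% and 33.6% of all. Their histone state in ES cells was facultative heterochromatin for 112 (36.8%, against 22.3% of all regions). It was the state the authors call naive for 87 (28.6%, against 17.996% of all). By location, 183 were intergenic (60.2%, against 50.01% of all) and 117 intronic (38.5%, against 46.9%). Within 1 kb of a protein-coding start lay 8 (2.63%, against 7.38% of all). An ESRRB match was listed for 229 of the 304 (75.3%), against 36.3% of all regions, and 115 had a match of the high score class, against 8.67%. The regions were also wider, with a median of 1056 bp against 524 bp, and held 1.20 ESRRB matches per kb against 0.798. Every one of them had a GATA6 match, while 10.3% of all regions had none. The match was of the high class in 159 (52.3%, against 26.8% of all).

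ESRRB fell on regions of a different kind, which were open and strongly bound in ES cells. The median over the 112 regions was 4.33 and 3.39 RPM in the day 0 libraries, 2.20 RPM at 8 h, 1.68 and 1.12 RPM at 16 h, and 0.669 and 0.716 RPM at day 1. It was 0.708 RPM at day 2 and 0.390 RPM at day 4 in the deposited columns. In 91 of the 112 regions the condition means decreased at every step, which held for 1741 of all regions. Per kb, the median went from 6.68 RPM at day 0 to 1.27 RPM at day 1.

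Of these 112 regions, 53 were accessible at day 0 (47.3%, against 7.43% of all regions). Moderate were 58 (51.8%, against 31.2% of all) and closed 1 (0.893%, against 61.3%). Transient GATA6 regions made up 104 (92.9%, against 38.4% of all). Active enhancers of ES cells made up 46 of them (41.1%, against 11.2% of all regions). An OCT4:SOX2 match of the high score class was listed for 30 (26.8%, against 6.68% of all). A GATA6 match of the high class was listed for 7 (6.25%, against 26.8% of all) and no GATA6 match for 27 (24.1%, against 10.3%). An ESRRB match was listed for 72 (64.3%), with 1.44 matches per kb, so some match was common in regions that fell as in regions that rose. The scores differed. A match of the high class was listed for 18 of the regions that fell (16.1%), against 37.8% of those that rose and 8.67% of all. The median score of the best match was 8.14 in regions that fell and 11.1 in regions that rose. Their median width was 575 bp.

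Over all regions, ESRRB was higher at day 1 in early and closed regions and lower in accessible ones; these medians by class have no test between classes. In early GATA6 regions (n = 11875) the median log2 difference from day 0 to day 1 was 0.41, and 18.3% were 2-fold higher and 1.49% 2-fold lower. In transient regions (n = 16285) the median was -0.04, with 5.25% higher and 11.0% lower, and in late regions (n = 14243) it was 0.11. Closed regions (n = 26003) had a median of 0.27, moderate regions (n = 13248) of -0.02 and accessible regions (n = 3152) of -0.46. With the deposited day 0 column the medians were -0.01 for early, -0.23 for transient and -0.02 for late regions, and 0.00 for closed, -0.22 for moderate and -0.40 for accessible regions.

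Both classes together separated the regions further. Early regions closed at day 0 (n = 7705) had a median of 0.34 RPM in both day 0 libraries, 0.549 RPM at 8 h, 0.673 and 0.700 RPM at 16 h and 0.621 and 0.597 RPM at day 1. Of them, 24.1% were 2-fold higher, and 240 rose by limma. Transient regions accessible at day 0 (n = 2033) had 2.14 and 1.72 RPM at day 0, 1.76 RPM at 8 h, 1.75 and 1.12 RPM at 16 h, and 0.860 and 1.43 RPM at day 1. Of them, 32.0% were 2-fold lower, and 51 fell by limma. In early closed regions the median of both day 1 libraries lay above both day 0 libraries, and in transient accessible regions below both. Input chromatin, sequenced without antibody, had medians of 0.397 RPM at day 0 and 0.461 RPM at day 1 in early closed regions, and of 0.851 and 0.797 RPM in transient accessible regions.

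**Figure D3:**
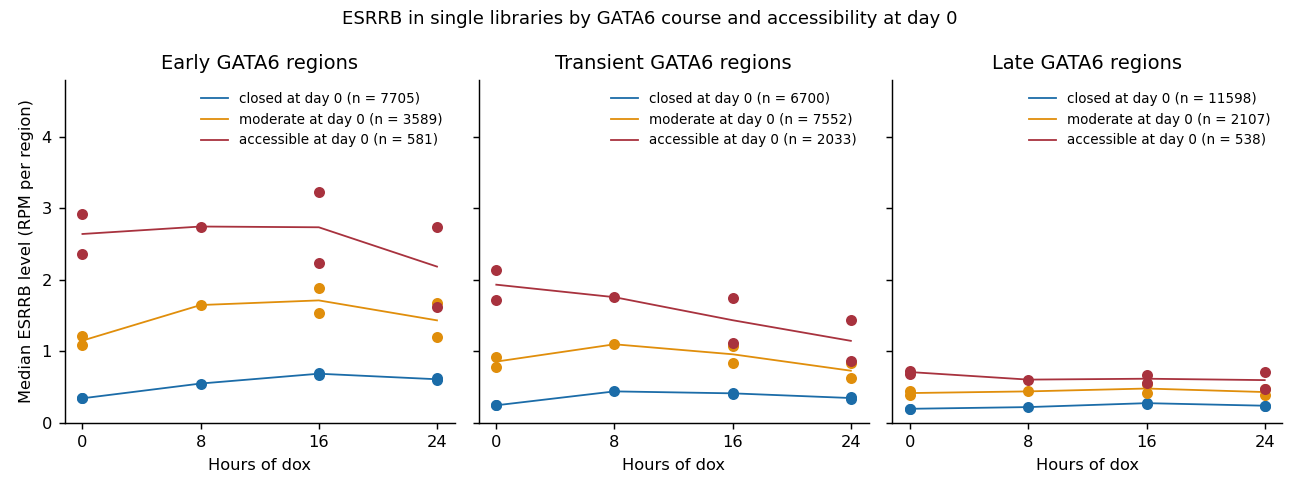
Median ESRRB level (RPM per region, vertical axis) by hours of Dox (horizontal axis), in 3 panels for early, transient and late GATA6 regions and with 1 color per accessibility class at day 0. Points are single libraries and lines join the mean of the library medians; early closed regions went from 0.34 RPM at day 0 to 0.621 and 0.597 RPM at day 1, and transient accessible regions from 2.14 and 1.72 RPM to 0.860 and 1.43 RPM.

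By tests per region, the classes differed in the direction of their calls. Early regions held 258 of the gains and 6 of the losses by limma, and 1124 gains and 259 losses by edgeR with TMM. Transient regions held 41 gains and 104 losses by limma, and 289 and 2032 by edgeR. In accessible regions limma called 53 losses and 0 gains, with 9 regions higher at an unadjusted p under 0.05, while edgeR called 961 losses and 2 gains with TMM and DESeq2 called 0 gains.

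Regions with an ESRRB match had larger differences in both directions. In early closed regions the median difference was 0.45 without a match, 0.63 with a match of the low score class, 0.72 with mid and 0.93 with high, and the share at least 2-fold higher was 17.5%, 27.2%, 32.9% and 45.1%. In accessible regions the median was -0.35 without a match and -0.75 with a high match. Regions with a high match were bound more strongly at day 0 in both settings, at 0.637 RPM against 0.294 RPM without a match in early closed regions, and at 7.41 against 1.13 RPM in accessible regions. The part of this starting level in the differences was not tested.

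The class of PTF binding was set by the authors from peak calls that included ESRRB, so its values are a description. Regions with a PTF at day 0 (n = 8841) had a median ESRRB difference of -0.31, those with a PTF only after Dox, called ectopic (n = 7038), of 0.43, and those with none (n = 26524) of 0.16. The 304 regions that rose held 116 ectopic regions (38.2%, against 16.6% of all) and 128 with a PTF at day 0 (42.1%, against 20.8%). Over all 304, day 0 medians were 0.564 RPM for ESRRB, 1.36 RPM for OCT4 and 0.570 RPM for SOX2. Over all regions with a PTF at day 0 they were 1.47, 3.10 and 3.58 RPM. The medians of the 128 alone were not computed, and the authors' day 0 calls were not checked against the recovered libraries. The 112 that fell held 98 with a PTF at day 0 (87.5%).

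The strongest ESRRB regions changed their make-up within the day. Of the 1000 regions with the highest level at day 0, 489 were accessible and 9 closed, and 616 were transient and 374 early. Of the 1000 highest at day 1, 293 were accessible and 124 closed, and 396 were transient and 599 early. The lists shared 597 regions, 59.7% of each, and the lists of 16 h and day 1 shared 849. Of all regions, 7.43% were accessible and 61.3% closed, and 38.4% were transient and 28.0% early. Levels here are RPM per region and not divided by width. Lists from single libraries of the same day were not compared, so the part of library noise in this exchange was not tested.

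In time, most of the gain was present before day 1. At 8 h, 5345 regions (12.6%) were at least 2-fold above day 0 and 1896 (4.47%) at least 2-fold below, with a median log2 difference of 0.19. At 16 h, 6117 (14.4%) were above and 1428 (3.37%) below, with a median of 0.27. These comparisons share the day 0 libraries with that of day 1. All counts and calls by time are on library totals. The TMM factors were 0.861 and 0.794 at day 0, 1.14 at 8 h, and 1.29 and 1.08 at 16 h. The comparisons of 8 h and 16 h were not run with them, so their split into gains and losses holds for library totals only. By limma, 1194 regions (2.82%) were higher and 92 (0.217%) lower at 16 h, and 2 regions (0.00472%) were higher and 0 (0%) lower at 8 h, with 3259 and 681 at an unadjusted p under 0.05. The single library of 8 h was taken to vary like those of the other times, and no other tool was run at 8 h or 16 h. Between 16 h and day 1, limma called 0 regions in either direction, with 978 higher and 2203 lower at day 1 at an unadjusted p under 0.05, and no other tool was run on this step.

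OCT4 and SOX2 lay to the same side as ESRRB on the called regions, and so, by a smaller amount, did input. The day 0 columns of OCT4, SOX2, SOX17 and input also held libraries of 8 h and 16 h, which were taken out here with the added reads left in, and these assays were compared as pooled values with no test. On the 304 regions where ESRRB rose, median OCT4 went from 1.36 RPM at day 0 to 4.49 RPM at day 1 and was at least 2-fold higher on 247 (81.3%, against 19.5% of all regions). SOX2 went from 0.570 to 3.17 RPM and was 2-fold higher on 285 (93.8%, against 23.1%). GATA6, which had a single sample at day 0, went from 0.653 to 8.22 RPM and was 2-fold higher on 300 (98.7%, against 58%). SOX17, a PrE factor, went from 1.22 to 4.20 RPM and was 2-fold higher on 255 (83.9%, against 28.3%). Input went from 0.720 to 1.04 RPM, a median log2 difference of 0.43 against 0.05 over all regions, and was 2-fold higher on 13 of the 304 (4.28%, against 0.524%). The part of the rise in input in the ESRRB result was not tested.

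On the 112 regions where ESRRB fell, median OCT4 went from 5.30 RPM at day 0 over 3.58 RPM at 8 h to 1.25 RPM at day 1 and was at least 2-fold lower on 101 (90.2%, against 5.32% of all). SOX2 went from 6.92 to 1.42 RPM and was 2-fold lower on 109 (97.3%, against 8.5%). GATA6 passed through these regions, with 0.653 RPM at day 0, 2.44 RPM at 8 h, 1.07 RPM at 16 h and 0.883 RPM at day 1, and was 2-fold lower on 0 of the 112 (0.811% of all). The SOX17 antibody signal went from 1.84 to 0.693 RPM and was 2-fold lower on 60 (53.6%, against 4.28% of all). The cells at day 0 had no Dox. What the SOX17 antibody signal stands for at day 0, here and on the rising regions, was not tested. Input was 0.524 RPM at day 0 and 0.407 RPM at day 1, and 2-fold lower on 1 of the 112 (0.17% of all).

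The assays differed in their course on the regions that rose. ESRRB and SOX2 had their highest median at 16 h, at 3.93 and 3.97 RPM, and were at 3.11 and 3.17 RPM at day 1. OCT4 was at 2.18 RPM at 8 h, 2.54 RPM at 16 h and 4.49 RPM at day 1, and GATA6 was already at 8.20 RPM at 8 h. Levels of different antibodies are not on a common scale, so only the course of each can be read. This course is on library totals, and the step of ESRRB from 16 h to day 1 was not computed with TMM factors.

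**Figure D4:**
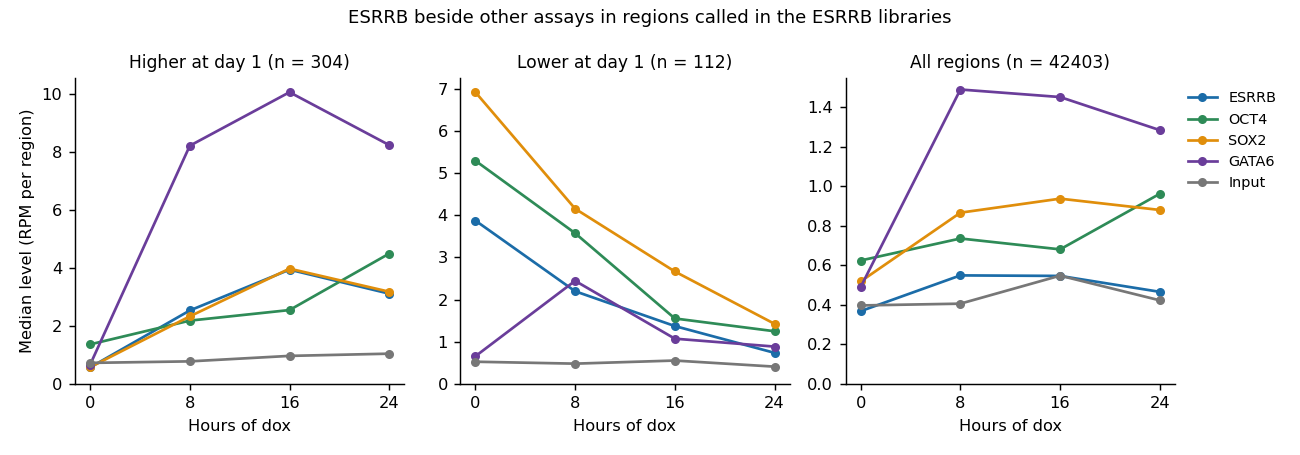
Median level (RPM per region, vertical axis, with its own scale in each panel) by hours of Dox (horizontal axis) for ESRRB, OCT4, SOX2, GATA6 and input, on the 304 regions where ESRRB rose, the 112 where it fell and all 42403 regions. On the rising regions ESRRB and SOX2, scaled to library totals, peak near 3.9 RPM at 16 h and input stays between 0.720 and 1.04 RPM.

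The regions with the largest rise lay near genes of several lineages, and 7 of the 8 were early and closed. The 8 were the largest differences among regions of 1 RPM or more whose day 0 and day 1 libraries do not overlap, and each is named by the nearest protein-coding start, which need not be its target. Over all regions, both day 1 libraries were above both day 0 libraries in 27.5% and below both in 18.5%.

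In an intron of Mecom, which encodes a zinc finger factor known from blood stem cells, a region at chr3:30353738-30354965 had 0.633 and 0.689 RPM at day 0, 4.06 RPM at 8 h, 10.5 and 8.40 RPM at 16 h and 7.89 and 9.19 RPM at day 1. The log2 change was 3.37 with a standard error of 0.40 (limma adjusted p = 0.00935). By counting alone, the read count per depth was 12.5 times that of day 0, with an exact 95% interval of 8.38 to 19.4, which covers counting error only.

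In an intron of Runx1, the gene of a blood-forming transcription factor, ESRRB at chr16:92661600-92663365 had 1.02 and 0.787 RPM at day 0, 5.93 RPM at 8 h, 13.5 and 11.8 RPM at 16 h and 8.03 and 11.0 RPM at day 1 (log2 change 3.15, SE 0.41). A region 120.6 kb from the start of Fgfr2, a receptor through which FGF4 acts in the early embryo, had 0.390 and 0.541 RPM at day 0 and 4.92 and 6.09 RPM at day 1 (log2 change 3.14, SE 0.39). A region 33.8 kb from Pdgfra, the receptor gene widely used as a PrE surface marker, had 0.682 and 0.541 RPM at day 0 and 4.97 and 7.16 RPM at day 1 (log2 change 2.96, SE 0.40). All of these carry the sequences shown above, and in each the 16 h libraries were at or above the level of a day 1 library.

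Regions near Lhx1, a LIM homeobox gene of early embryonic patterning, near Med12l, a gene related to a Mediator subunit, and near Rap2b, which encodes a small GTPase, had log2 changes of 3.06, 3.03 and 2.997. The limma adjusted p was 0.00935 for these 3 and for the Runx1, Fgfr2 and Pdgfra regions as well. On these 7 regions SOX2 went from at most 0.984 RPM at day 0 to between 5.60 and 10.1 RPM at day 1, and GATA6 at day 1 was between 13.1 and 20.4 RPM.

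The remaining region of the 8, in a coding exon of Esrra, the gene of the related receptor ERRα, stood apart. It had 0.828 and 0.640 RPM at day 0, 4.61 RPM at 8 h, 3.63 and 4.06 RPM at 16 h, but 1.15 and 15.8 RPM at day 1, so the rise rests on the shallower day 1 library. The limma adjusted p was 0.161, while edgeR with TMM gave an adjusted p of 3.27e-09. In the same region the GATA6 library of day 0, made without Dox, had 96.4 RPM against 0.599 RPM at day 1.

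The 8 largest falls lay more than 3 kb from a protein-coding start, and 7 of them were transient GATA6 regions. In an intron of Grm7, a glutamate receptor gene, ESRRB at chr6:111446283-111446595 had 4.77 and 3.001 RPM at day 0, 1.98 RPM at 8 h, 1.48 and 0.840 RPM at 16 h and 0.335 and 0.358 RPM at day 1 (log2 change -2.92, SE 0.43, limma adjusted p = 0.0118). The region 107.9 kb from Sis, the sucrase-isomaltase gene, had 1.80 and 2.51 RPM at day 0 and 0.143 and 0.119 RPM at day 1, and is the only early region of the 8.

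The largest level among these 8 was in a region 160.5 kb from Tll1, a gene of a secreted metalloprotease, with 8.91 and 11.0 RPM at day 0, 3.30 RPM at 8 h, 3.77 and 2.38 RPM at 16 h and 0.956 and 1.55 RPM at day 1. OCT4 there went from 11.3 to 2.10 RPM and SOX2 from 18.2 to 1.82 RPM. The other 4, near Apln, Pam, Zmym1 and Kcnk5, had log2 changes from -2.88 to -2.67 with limma adjusted p from 0.0140 to 0.0284. In these 8 regions OCT4 and SOX2 were each lower at day 1 than at day 0. That neither day 1 library of ESRRB reached a day 0 library was a condition for choosing the 8.

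The regions with most ESRRB at day 0 kept much of it. The 5 highest lay near Mybl2, Pla2g10, Sox2 (110.9 kb from its start), Brd1 and Sept1. Near Mybl2, a cell cycle transcription factor gene, ESRRB was 42.1 and 25.9 RPM at day 0 and 22.2 and 26.7 RPM at day 1, so the groups overlapped. The distal Sox2 region had 32.2 and 33.4 RPM at day 0, 27.7 RPM at 8 h, 30.1 and 18.9 RPM at 16 h and 12.1 and 21.6 RPM at day 1. Over the 5, the day 0 mean was 1.39 to 1.94 times that of day 1, with limma adjusted p from 0.484 to 0.829, and edgeR with TMM called 4 of them lower. Widths ran from 681 bp near Brd1 to 3054 bp near Pla2g10, and per kb the Brd1 region was highest, at 47.4 RPM at day 0.

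At the strongest region of each gene of the pluripotency network, ESRRB more often lay below day 0 than above it at day 1, with Klf5 and Pou5f1 above it in both libraries. Of 30 genes on this list, 28 had a region within 50 kb, and the strongest region of each reached a mean of 1 RPM for 27, with Dppa3 under it and with no region for Fgf4 and Gdf3. In 15 of the 27 both day 1 libraries were below both day 0 libraries, in 2 above, and in 10 they overlapped. Of all regions, 18.5% lay below and 27.5% above, but these include weak regions, where fewer reads separate libraries less well. The median log2 difference was -0.63, against -0.03 over the 9933 regions of 1 RPM or more. At day 0, 17 of the 27 were accessible, 10 moderate and 0 closed, and 17 were transient GATA6 regions. Transient accessible regions as a whole had a median of -0.68. The part of these classes in the difference on this list was not tested. By limma 1 region rose and 0 fell (0.717% and 0.264% of all regions), with 2 higher and 7 lower at an unadjusted p under 0.05. With edgeR and TMM, 2 were higher and 12 lower (3.47% and 5.64% of all regions), with edgeR on library totals 1 and 2, and with DESeq2 2 and 9.

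The region that rose lies 32.6 kb from Klf5, a Krüppel-like factor gene of naive ES cells, at chr14:99330342-99332644. ESRRB there had 2.63 and 1.57 RPM at day 0, 14.5 RPM at 8 h, 20.9 and 23.0 RPM at 16 h and 14.5 and 12.7 RPM at day 1 (log2 change 2.63, SE 0.46, limma adjusted p = 0.0204). GATA6 in this region was 36.6 RPM at 8 h, and OCT4 went from 5.21 RPM at day 0 to 19.1 RPM at day 1.

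A region 17.6 kb from Pou5f1, the OCT4 gene, had 4.38 and 3.64 RPM at day 0, 7.14 RPM at 8 h, 13.5 and 15.1 RPM at 16 h and 9.03 and 10.5 RPM at day 1. The libraries of the 2 days did not overlap, with a limma adjusted p of 0.200 and an edgeR (TMM) adjusted p of 0.0291. OCT4 itself went from 3.17 to 5.98 RPM on this region.

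The strongest region of the list at day 0 was in an intron of Esrrb, the factor's own gene, with 26.8 and 20.4 RPM at day 0, 15.8 RPM at 8 h, 15.5 and 9.53 RPM at 16 h and 5.02 and 10.0 RPM at day 1. Its log2 difference was -1.69 (SE 0.52), with a limma adjusted p of 0.138 and an edgeR (TMM) adjusted p of 1.05e-05. OCT4 on this region went from 11.99 to 2.45 RPM and SOX2 from 19.3 to 3.65 RPM. The region 18.2 kb from Sox2 had 11.0 and 7.53 RPM at day 0 and 1.58 and 4.42 RPM at day 1, a log2 difference of -1.71 (SE 0.49).

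Regions of Klf2, Zfp42 (the gene of REX1), Tet2 and Tbx3 were alike in having both day 1 libraries below both day 0 libraries. Klf2 had 12.8 and 14.9 RPM at day 0 and 3.68 and 7.88 RPM at day 1, and Zfp42 had 14.8 and 13.3 RPM and then 3.82 and 8.48 RPM. Nanog, a core pluripotency gene, had 8.57 and 7.13 RPM at day 0 and 2.58 and 6.81 RPM at day 1, where the higher day 1 library came close to day 0. None of these regions passed in limma, and edgeR with TMM called each of them lower. In contrast, Tfcp2l1, Id3, Sall4, Nr0b1, Tead4 and Otx2 had overlapping libraries, with limma log2 differences between -0.33 and -0.04 that changed sign in at least 1 of the 11 settings tried.

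At the strongest region of each gene of the PrE program, ESRRB was more often higher at day 1. All 30 genes of this list had a region within 50 kb, and the strongest region reached 1 RPM for 27, with Hnf4a, Ihh and P4ha2 under it. In 17 of the 27 both day 1 libraries were above both day 0 libraries, in 0 below, and in 10 they overlapped. Of all regions, weak ones included, 27.5% lay above and 18.5% below. The median log2 difference was 0.89, against -0.03 over the regions of 1 RPM or more. At day 0, 15 of the 27 were closed, 11 moderate and 1 accessible, and 20 were early GATA6 regions. Early closed regions as a whole had a median of 0.55. The part of these classes in the difference on this list was not tested. By limma 4 rose, namely Pdgfra, Amn, Sox17 and Gata4, and 0 fell (0.717% and 0.264% of all regions), with 13 higher and 1 lower at an unadjusted p under 0.05. With edgeR and TMM 9 were higher and 1 lower (3.47% and 5.64% of all regions), with edgeR on library totals 7 and 0, and with DESeq2 7 and 0.

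The strongest Pdgfra region, 14.3 kb from the start, had 1.80 and 1.87 RPM at day 0, 7.58 RPM at 8 h, 19.0 and 14.3 RPM at 16 h and 10.4 and 11.5 RPM at day 1 (log2 change 2.46, SE 0.43, limma adjusted p = 0.0204). Gata4, which encodes the partner GATA factor of PrE, had 0.877 and 1.53 RPM in an intronic region at day 0 and 4.68 and 4.42 RPM at day 1 (limma adjusted p = 0.0471). Among all called regions Gata4 had 5 that rose within 50 kb and Pdgfra 3, the highest counts of any gene. These counts were not divided by the number of regions near each gene. Sox17, a PrE transcription factor gene, had 1.46 and 0.738 RPM at day 0 and 3.78 and 4.90 RPM at day 1, 40.3 kb from its start.

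Amn and Lrp2 encode receptors of endocytic epithelia such as the yolk sac. Near Amn ESRRB had 1.12 and 0.689 RPM at day 0 and 3.92 and 5.49 RPM at day 1 (limma adjusted p = 0.0385), and near Lrp2 it had 1.22 and 2.02 RPM and then 4.87 and 6.21 RPM (limma adjusted p = 0.0689). The highest level of the list at day 1 was in a region 3.9 kb from Col4a2, a basement membrane collagen gene, with 8.23 and 3.79 RPM at day 0, 29.5 and 33.1 RPM at 16 h and 18.8 and 18.9 RPM at day 1 (limma adjusted p = 0.134, edgeR with TMM 0.00115).

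The region called lower by edgeR lies in a coding exon of Gata6, whose coding sequence is also carried by the cassette, so reads from either cannot be told apart. It had 3.60 and 11.7 RPM at day 0 and 4.30 and 0.955 RPM at day 1, and input there was 8.97 RPM at day 0 and 7.55 RPM at day 1. Sox7, Foxa2 and Lamb1, of the same program, had overlapping libraries.

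**Figure D5:**
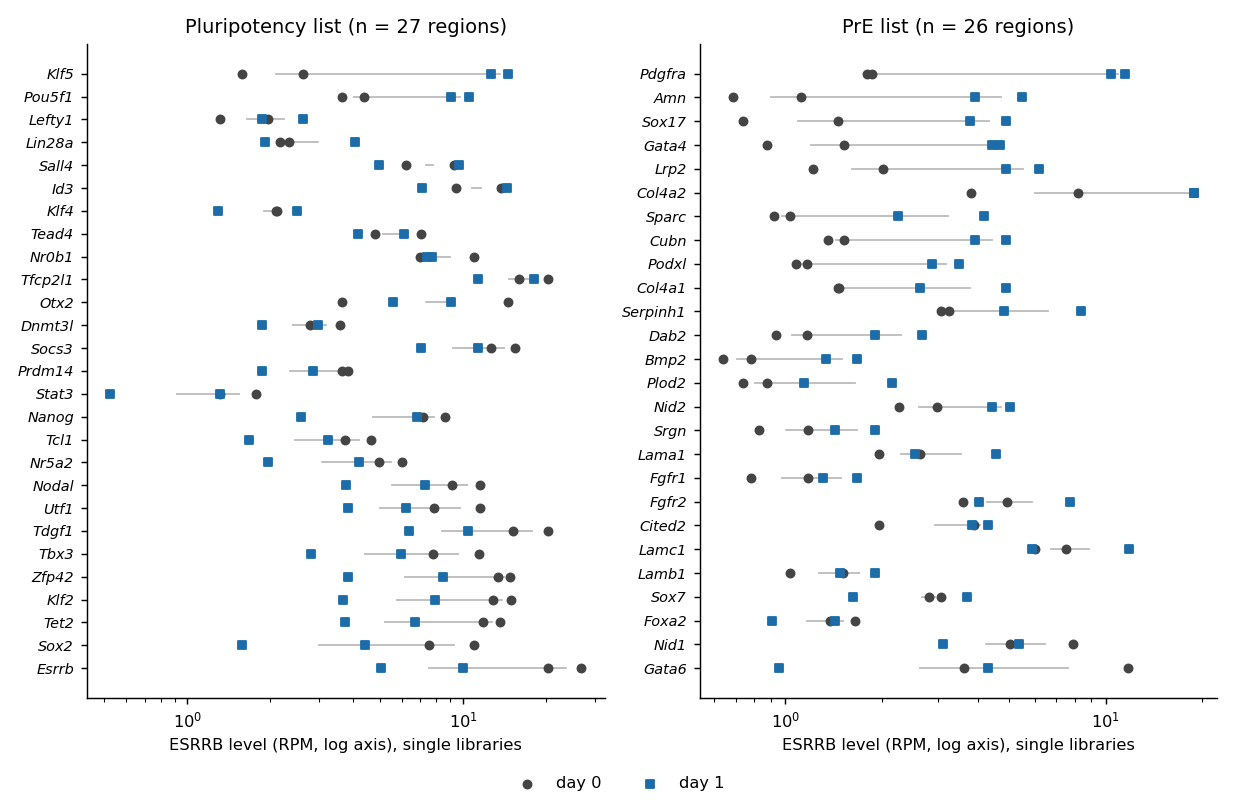
ESRRB level in single libraries (RPM, horizontal log axis) for the strongest region of each gene with a mean of 1 RPM or more, in the pluripotency list (27 regions) and the PrE list (26 of its 27 regions), ordered by the difference between days. Circles are day 0, squares day 1 and gray lines join the means; day 1 lies below day 0 without overlap in 15 and 0 regions, and above in 2 and 17.

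All regions within 50 kb of these genes were counted as well, against shares over all regions of 0.717% higher and 0.264% lower by limma and 3.47% and 5.64% by edgeR with TMM. Of 165 regions at pluripotency genes, limma called 1 higher and 0 lower, with 14 and 12 at an unadjusted p under 0.05, and edgeR with TMM called 11 higher and 20 lower. Of 241 regions at PrE genes, limma called 10 higher and 0 lower, with 48 and 1 at an unadjusted p under 0.05, and edgeR with TMM called 26 higher and 3 lower. Both day 1 libraries lay above both day 0 libraries in 35 of the 165 regions and below both in 39. At PrE genes this held for 110 and 18 of the 241, against 27.5% and 18.5% of all regions. The median log2 difference was 0.13 at pluripotency genes and 0.45 at PrE genes, against 0.14 over all regions.

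Genes of energy metabolism, which estrogen-related receptors are known to regulate in other tissues, showed little difference. Of 20 genes 14 had a region within 50 kb and 8 reached 1 RPM, with a median log2 difference of -0.01. By limma none of the 8 passed, with 1 higher and 0 lower at an unadjusted p under 0.05. edgeR with TMM called 1 higher, the Esrra exon described above, and DESeq2 called 0.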

How the data were processed

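ChIP-seq of ESRRB at day 0, 8 h, 16 h and day 1 was analysed, with GATA6, OCT4, SOX2, SOX17 and input of the same times beside it. Per the submitters' notes and the study's methods, the authors demultiplexed with bcl2fastq, trimmed with cutadapt, aligned to mm10 with Bowtie2, filtered with SAMtools using molecular identifiers, called peaks with MACS2 on merged replicates and counted reads on each GATA6 region with bamsignals; versions are not given in the sources used here. The deposited values are RPM, pooled by the authors into 1 value per condition. Motif columns deposited by the authors hold the score of the best FIMO match, its position and its class. Columns of the outcome of the authors' own comparison (siRNA against Oct4) were not used, and neither were 14 columns of per-sample values of other samples.

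Each value was solved as the mean over libraries of (reads + 1) divided by depth. All values (100%) of the 4 columns lay on whole reads, to within 2.33e-05 RPM, and the solution was the only one for 99.559% of day 0 values, 99.9929% at 16 h and 100% at 8 h and day 1. Added reads were taken out. Recovered libraries carry no replicate number, and the study's methods name 2 separately prepared chromatins for most conditions, so p-values measure the spread between these libraries. limma 3.58.1 (trend) was run on log2(RPM + 0.179179), the pseudocount being percentile 5 of the non-zero values, in all 7 libraries with condition as the only term; calls had an adjusted p (Benjamini-Hochberg over 42403 regions) under 0.05. Alternatives were edgeR 4.0.16 with TMM or library totals, DESeq2 1.42.0, other pseudocounts, a filter at 1 RPM, input subtraction, other centring, a 1.5-fold threshold, fits of day 0 and day 1 only and each library left out. The scripts were tested on simulated data. Other tools were R 4.3.3, Python 3.11.15, numpy 2.4.6, pandas 2.3.3 and scipy 1.17.1.

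Gene names are the nearest protein-coding start in GENCODE vM21, and coordinates are as deposited. Regions named are, for each listed gene, the one within 50 kb with the highest mean of day 0 and day 1, with values for means of 1 RPM or more; the 8 largest rises and 8 largest falls among regions of 1 RPM or more whose libraries do not overlap; and the 5 highest at day 0. The comparison, the lists and the tests were chosen with earlier results of these data known. A few regions that meet these rules are not reported here.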

Additional observations from a re-analysis of the deposited data

How the results depend on the processing

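No paired analysis was possible because the recovered libraries carry no replicate number. The centring planned on regions with no ESRRB peak call was not run as written, since no such calls were used here; regions closed at day 0 without PTF took its place, and this, the recovered day 0, limma with TMM factors and the deposited day 0 columns of other assays were added after seeing the data. The medians over all, early and late regions, below 0 with the deposited columns, were above 0 with the recovered day 0, and the median of input over all regions, 0.05, was below 0 as deposited. The larger of the counts of higher and lower regions also turned with the recovered day 0 and, in the libraries, with TMM scaling, DESeq2 and the larger pseudocount. Over all regions with the deposited columns (94 higher, 1077 lower, median -0.09), a pseudocount 10 times smaller gave 688 and 2591 regions and one 10 times larger 1 and 46. A minimum of 1 RPM gave 30 higher and a median of -0.22, input subtraction 2133 and 6244, centring on the median 195 higher, and a 1.5-fold threshold 1834 and 5326. The recovered day 0 gave 3481, 2157 and a median of 0.14. By class, input subtraction gave -0.12 for early and 0 for late regions, and the recovered day 0 gave 0.41 for early, 0.11 for late, -0.039 for transient and 0.27 for closed regions. The 1 RPM minimum gave -0.10 for late, -0.41 for transient and 0.073 for closed regions. For late regions the smaller and larger pseudocounts gave -0.026 and -0.0046.

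In the libraries (304 higher, 112 lower), edgeR with TMM gave 1472 and 2392, edgeR on library totals 1129 and 728, DESeq2 459 and 847, limma with TMM factors 789 and 1361, a pseudocount 10 times larger 41 and 57, a minimum of 1 RPM 907 and 537 of 11212 regions, and a fit of day 0 and day 1 only 599 and 388. Leaving out a library gave 0 to 0 in both directions, where the lone library of a day is assumed to vary like the others. For the other assays, OCT4 medians over all, rising and falling regions were 0.12, 0.92 and -1.12 with the larger pseudocount and 0.29, 0.99 and -1.35 as deposited. Those of SOX2 were 0.11, 1.05 and -1.40 and 0.029, 0.39 and -1.59 as deposited. With the larger pseudocount GATA6 had 0.44, 1.95 and 0.16 and input 0.16 on rising regions, and input as deposited had -0.051 over all and 0.26 on rising regions. Depth limits low values, as a region at the pseudocount rests on 1 to 4 reads.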

Other observations

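A region in a coding exon of Nr0b1, the gene of the nuclear receptor DAX1, had the highest single value of all ESRRB libraries and was chosen after its values were seen. It had 4.63 and 3.99 RPM at day 0, 106 RPM in the library of 8 h, 13.6 and 28.9 RPM at 16 h and 1.24 and 2.15 RPM at day 1. OCT4 there was 2.02 RPM at day 0, 5.29 RPM at 8 h, 35.0 RPM at 16 h and 1.72 RPM at day 1, while input stayed between 0.892 and 1.53 RPM. As in the coding exons of Esrra and Gata6, single libraries stood far above the others of their time or assay. The cause was not tested.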
